A study of Mus musculus with 85 samples.

Results

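Among 16 single cells sorted as hematopoietic cluster cells from the E12.5 mouse embryo, 3 had no Kit transcript above background and 13 had one. The 3 Kit-low cells (cells 3, 6 and 10) and the 13 Kit-high cells were selected on the measured Kit value, on the brightest of the 2 Kit probe sets (by its average across the 5 populations), with a threshold of log2 5. Kit was 3.53, 4.06 and 2.45 in the Kit-low cells and 9.24 to 14.23 (median 11.86) in the Kit-high cells, so that 4.06 was the value just inside the threshold and 9.24 the value just outside it. The 3 cells were 18.8% of the 16 (exact 95% interval 4.05% to 45.6%, counting error only), and 3 of the 85 samples of the series. Each sample is 1 cell on 1 Affymetrix array, and the values are log2 expression, on which a difference of 1 is a doubling.

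All 16 cells came from wild-type embryos and from the aorta-gonad-mesonephros, the tissue around the dorsal aorta in which the first hematopoietic stem cells arise. They were dissociated with collagenase and sorted by 1 gate, positive for c-Kit, CD31 and CD45 and negative for SSEA1. The series also holds cluster cells of E10.5 sorted by the same gate (28 cells, wild type, from the caudal part of the embryo), E14.5 fetal liver stem cells (27 samples, wild type, gated as CD150+ and CD48-, c-Kit+ and Sca-1+, lineage-negative and Mac-1+), and E10.5 hemogenic endothelial cells (HEC) and endothelial cells (EC) of 7 cells each, sorted as CD31+Ter119-CD45-CD41- from embryos of the eR1-GFP reporter line with and without its signal. No label names an embryo or a litter, the 3 cells may come from 1 embryo, and the groups were made from the data. For these reasons the comparison is given as a description without a test or a p-value.

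Kit is the receptor for stem cell factor and is used to sort hematopoietic stem and progenitor cells, whereas mature macrophages are recognised by the receptor Csf1r, the complement protein C1q and a large lysosomal system. In the embryo, macrophages first arise from yolk sac progenitors and spread into the tissues, among them the aortic region, where they lie beside the intra-aortic clusters. The transcription factors Spi1 (PU.1), Irf8 and Maf are known for their part in macrophage identity, and Myb, Gata2 and Meis1 for theirs in stem and progenitor cells.

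The macrophage label was described with 9 markers (C1qa, C1qb, C1qc, Csf1r, Adgre1, Cd68, Mrc1, Mertk and Fcgr1). C1qb and Csf1r are markers by which the group was named, and the markers were chosen with earlier results of these data known. Their values are therefore no independent check of the label. All 9 were above background, taken as log2 5, in each of the 3 Kit-low cells, with a mean over the markers of 12.01, 12.91 and 11.44 in cells 3, 6 and 10. Each Kit-high cell had 0 or 1 of the 9, and 3.74 was the highest marker mean among them. Of 5 progenitor markers other than Kit (Myb, Gata2, Meis1, Cd34 and Ikzf1), the Kit-low cells had 2, 1 and 3 above background and the Kit-high cells 3 to 5. The 3 cells thus carried these 9 macrophage transcripts, although the gate was set for c-Kit and CD31.

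The other genes of the gate were divided. Pecam1, which encodes CD31, was at 2.71, 2.67 and 2.66 in Kit-low cells and at 2.64 to 11.50 (median 7.78) in Kit-high cells, above background in 0 of 3 and 11 of 13. Ptprc, which encodes CD45, was at 10.44, 12.95 and 12.11 in Kit-low cells and at 2.43 to 13.94 (median 12.10) in Kit-high cells, above background in 3 of 3 and 12 of 13. Of the gate's positive markers other than Kit, which chose the cells, Pecam1 was thus at background in all 3 Kit-low cells and Ptprc was not. Neither protein nor sort records are among the values used here, and the part of the sort in the result was not tested.

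**Figure D1:**
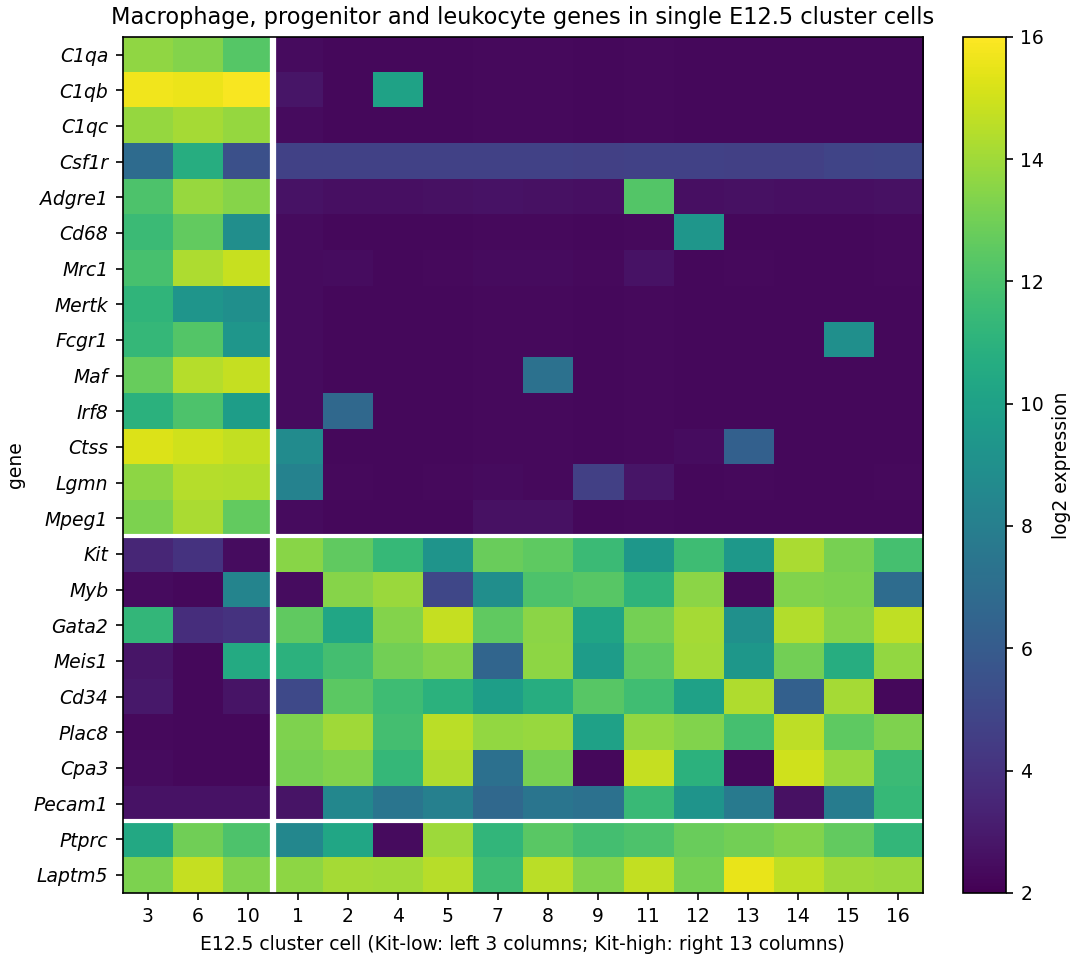
Log2 expression (colour) of 24 genes (rows) in the 16 E12.5 cluster cells (columns), with the 3 Kit-low cells on the left and the 13 Kit-high cells on the right. The upper block of macrophage genes is bright in all 3 Kit-low cells, apart from Csf1r in cells 3 and 10 (6.88 and 5.40 on the probe set drawn). It is dark in most Kit-high cells, where exceptions include C1qb in cell 4 (10.07), Adgre1 in cell 11 (12.24), and Ctss and Lgmn in cell 1 (8.75 and 8.18).

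The promoters of 4 genes at the 2 ends of the comparison are shown: C1qb, C1qc and Ctss, which are among the genes with the largest positive differences, and Kit, on which the cells were split. Each is the RefSeq interval from 250 bases before to 50 after the annotated start (build GRCm38.p6). The intervals are chr4:136886151-136886450, minus strand for C1qb, chr4:136892865-136893164, minus strand for C1qc, chr3:95526536-95526835, plus strand for Ctss and chr5:75574737-75575036, plus strand for the first of 2 Kit starts listed. Capitals mark every match, on either strand, to GAGGAA (the core bound by PU.1) or TGCTGA (part of the Maf recognition element).
C1qb: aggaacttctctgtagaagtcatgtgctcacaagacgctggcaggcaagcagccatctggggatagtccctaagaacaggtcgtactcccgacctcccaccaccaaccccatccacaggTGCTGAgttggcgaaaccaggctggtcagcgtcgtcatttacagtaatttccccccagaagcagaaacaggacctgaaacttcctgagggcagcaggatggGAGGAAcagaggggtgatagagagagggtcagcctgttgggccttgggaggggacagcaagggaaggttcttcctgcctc
C1qc: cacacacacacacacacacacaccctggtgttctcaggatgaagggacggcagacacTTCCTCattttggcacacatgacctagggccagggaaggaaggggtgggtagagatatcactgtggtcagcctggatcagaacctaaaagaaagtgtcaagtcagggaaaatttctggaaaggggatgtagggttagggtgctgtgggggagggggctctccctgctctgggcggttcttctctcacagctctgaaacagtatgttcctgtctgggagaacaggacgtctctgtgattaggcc
Ctss: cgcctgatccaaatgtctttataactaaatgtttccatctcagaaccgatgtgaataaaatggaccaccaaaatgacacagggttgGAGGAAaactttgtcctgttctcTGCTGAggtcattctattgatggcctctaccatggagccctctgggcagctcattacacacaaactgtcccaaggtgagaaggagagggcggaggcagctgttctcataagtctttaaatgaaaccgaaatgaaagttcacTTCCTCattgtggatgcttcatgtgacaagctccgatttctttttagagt
Kit: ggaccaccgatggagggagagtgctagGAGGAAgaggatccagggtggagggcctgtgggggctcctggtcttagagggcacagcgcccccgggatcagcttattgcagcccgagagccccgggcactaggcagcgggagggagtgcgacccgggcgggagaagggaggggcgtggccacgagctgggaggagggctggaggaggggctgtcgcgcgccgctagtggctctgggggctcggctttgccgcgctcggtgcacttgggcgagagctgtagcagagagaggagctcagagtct

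A total of 9 motifs were searched, and the 2 in capitals were picked after the shares of all 9 had been seen, so the shares are given for all of them and none is a test. Of the 98 genes described below as higher in every Kit-low cell, 78 matched a RefSeq promoter, and GAGGAA occurred in 42.3% of them and in 31.3% of all genes with a promoter, whereas TGCTGA occurred in 33.3% of them and in 21.7% of all genes. In the same order the shares were 6.41% against 3.69% for GAGGAAGT, 1.28% against 1.18% for AGAGGAAGT and 33.3% against 26.6% for GGAAGT, 3 motifs that overlap GAGGAA or each other. They were 6.41% against 5.95% for TGACTCA, 6.41% against 8.09% for CACGTG, 2.56% against 4.29% for TCACGTG (which contains CACGTG) and 6.41% against 8.58% for GATAAG. The Kit promoter also held GAGGAA.

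Over all genes, 7935 of 18194 were measured, meaning above background in at least 3 of the 16 cells. Of these, 1230 (15.5%) were higher in Kit-low cells by 2 or more and 1743 (22%) were lower by 2 or more, and the median difference (the Kit-low mean minus the Kit-high mean) was -0.32. Each count for a list below is to be read beside these shares. Without the filter, 8.30% of the 18194 genes were higher and 9.58% lower, and the median was 0.01. A stricter count took genes above background in all 3 Kit-low cells and higher there than in each of the 13 Kit-high cells, which held for 98 genes (1.24%). The reverse, every Kit-high cell above background and above every Kit-low cell, held for 17 genes (0.214%). With 3 cells on one side and 13 on the other the 2 strict counts are not on an equal footing, and 40 measured genes were seen in no Kit-high cell while 1500 were seen in no Kit-low cell.

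The 3 cells were moderately alike. Over the 7935 genes the correlation between pairs of Kit-low cells was 0.414 to 0.501, against 0.254 to 0.450 between Kit-low and Kit-high cells and 0.269 to 0.551 between pairs of Kit-high cells. The median with Kit-high cells was 0.327 for cell 3, 0.351 for cell 6 and 0.421 for cell 10, beside 0.443 between pairs of Kit-high cells. Cell 10 was thus the nearest of the 3 to the Kit-high cells, while its correlations with cells 3 and 6 were 0.488 and 0.501. These are correlations across genes within single cells, which share dropouts and array effects. Cell 3 had 5669 probe sets above background, cell 6 had 8747 and cell 10 had 7732, within the 4137 to 11079 of the Kit-high cells (median 8101), so the 3 lie within that range.

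Complement C1q, the recognition molecule of the classical pathway, was high in all 3 Kit-low cells. C1qb was 15.69, 15.59 and 15.88 in the Kit-low cells and 2.28 to 10.07 (median 2.31) in the Kit-high cells, with means of 15.72 ± 0.15 in Kit-low cells (SD, n = 3) and 2.95 ± 2.15 in Kit-high cells (SD, n = 13) and a difference of 12.77. C1qc was 13.76, 14.13 and 13.77 in Kit-low cells and 2.28 to 2.40 (median 2.31) in Kit-high cells. C1qa was 13.69, 13.41 and 12.32 in Kit-low cells and 2.28 to 2.40 (median 2.31) in Kit-high cells. All 3 subunits were thus above background in every Kit-low cell, and C1qa and C1qc in no Kit-high cell. The exception is Kit-high cell 4, which had C1qb at 10.07 with C1qa and C1qc at 2.28 and 2.28. C3ar1, the receptor for the C3a fragment, was 12.19, 13.55 and 13.78 in Kit-low cells and 2.28 to 10.70 (median 2.31) in Kit-high cells. The complement list was not uniform, as Itgam (CD11b), C5ar1, Cfb and Hc were above background in none of the 16 cells. Of its 14 genes, 11 were on the array and 7 were measured (2 of them only through the Kit-low cells). Of the 7, 4 were higher by 2 or more, beside 15.5% of all measured genes.

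Csf1r, the receptor that macrophages need for survival, depends on the probe set. On the probe set used here it was 6.88, 10.71 and 5.40 in Kit-low cells and 4.66 to 4.90 (median 4.70) in Kit-high cells, where the baseline lies just under the threshold. On 2 further probe sets it was 12.77, 13.82 and 14.10 and 12.56, 13.75 and 14.26 in Kit-low cells, against at most 2.51 and 3.41 in Kit-high cells. All 3 probe sets thus placed the Kit-low cells above every Kit-high cell, and the difference was 2.95 on the first and 11.23 and 11.11 on the others.

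Among the macrophage regulators, Maf was 12.75, 14.45 and 14.75 in Kit-low cells and 2.28 to 7.23 (median 2.31) in Kit-high cells, and Irf8 was 10.92, 12.11 and 9.81 in Kit-low cells and 2.28 to 6.73 (median 2.31) in Kit-high cells. On the probe sets used, both were higher in every Kit-low cell than in any Kit-high cell. On other probe sets this did not hold above background, with Irf8 at 2.31 in cell 10 and Maf at 2.59 in cell 6. Spi1 overlapped between the groups, at 8.56, 10.90 and 8.85 in Kit-low cells and 2.29 to 9.89 (median 8.11) in Kit-high cells, where 10 of 13 were above background. Cebpa, a myeloid factor, was 10.87, 10.10 and 6.86 in Kit-low cells and above background in 4 of 13 Kit-high cells. Cebpb, Tfec, Mitf and Egr2 were each above background in only 1 or 2 of the 3 Kit-low cells. Runx3 was 2.36, 2.31 and 2.31 in Kit-low cells and 2.29 to 11.06 (median 8.85) in Kit-high cells. Of 17 regulators on the array (18 listed), 13 were measured, 9 of them higher and 1 lower by 2 or more, with a median of 2.95. Over all measured genes 15.5% were higher and 22% lower. Of the 13, 1 (Csf1r) passed the filter only through the Kit-low cells and so had to differ, and the median is its own difference.

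Surface receptors of macrophages followed. Mrc1, the mannose receptor, was 11.94, 14.30 and 14.85 in Kit-low cells and 2.30 to 2.68 (median 2.33) in Kit-high cells. Adgre1 (F4/80) was 12.10, 13.86 and 13.45 in Kit-low cells and 2.57 to 12.24 (median 2.61) in Kit-high cells, where cell 11 alone was above background. Mertk, a receptor for apoptotic cells, was 11.14, 9.31 and 8.98 in Kit-low cells and 2.29 to 2.41 (median 2.32) in Kit-high cells. The groups did not overlap for Mrc1 and Mertk, and overlapped by 1 cell for Adgre1. Mpeg1, the macrophage perforin, was 13.25, 14.20 and 12.65 in Kit-low cells and 2.28 to 2.62 (median 2.31) in Kit-high cells. Dab2, an endocytic adaptor, was 12.13, 13.86 and 14.23 in Kit-low cells and 2.28 to 4.27 (median 2.31) in Kit-high cells on the probe set used. Of 3 further Dab2 probe sets, 1 also placed every Kit-low cell above every Kit-high cell, whereas the other two had Kit-high cell 1 at 9.02 and 8.76, with 2 and 1 of the 3 Kit-low cells above background. Of 31 genes of the surface and phagocytosis list on the array, 23 were higher and 1 (Emilin2) lower by 2 or more, with a median of 4.89 beside 0.01 over all 18194 genes. Among the 15 measured, 6 passed the filter only through the Kit-low cells and so had to differ, and the median was 6.50.

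Several receptors were carried by only some of the 3 cells. Lyve1, a hyaluronan receptor of a subset of tissue macrophages, was 2.36, 4.96 and 14.29 in cells 3, 6 and 10 and at most 2.40 in Kit-high cells. Cx3cr1, the fractalkine receptor, was 3.11, 11.14 and 2.34 in the same order and 2.29 to 9.29 (median 2.34) in Kit-high cells, where cell 7 was above background and, on another probe set, cell 14 at 8.40. F13a1, a transglutaminase of macrophages, was 2.36, 12.07 and 13.93 in Kit-low cells and 2.28 to 10.15 (median 2.34) in Kit-high cells, where cell 2 was above background. Ms4a7 was 12.21, 13.32 and 2.31 in Kit-low cells and at most 2.40 in Kit-high cells. Among the 3 Kit-low cells no pair of these genes had the same pattern, as Lyve1 was above background in cell 10 only, Cx3cr1 in cell 6 only, F13a1 in cells 6 and 10, and Ms4a7 in cells 3 and 6. Over all 18194 genes, 368 were above background in at least 1 Kit-low cell and in no Kit-high cell, and of these 40 were found in all 3 Kit-low cells, 78 in 2 and 250 in 1.

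Fc receptors and their adaptors were partly shared with the Kit-high cells. Fcgr1, the high-affinity IgG receptor, was 11.34, 12.24 and 9.35 in Kit-low cells and 2.28 to 8.95 (median 2.31) in Kit-high cells. The adaptor Tyrobp (DAP12) was 14.35, 14.55 and 14.20 in Kit-low cells and 7.12 to 14.64 (median 12.74) in Kit-high cells, and Fcer1g was 12.96, 13.50 and 14.33 in Kit-low cells and 2.71 to 13.65 (median 11.80) in Kit-high cells. On the probe set used, the receptor thus separated the groups while the adaptors were above background in most cells of both. On another Fcgr1 probe set, cell 6 alone was above background (7.12). Of 14 members on the array (18 listed), 12 were measured, 6 higher and 1 (Btk) lower by 2 or more. Over all measured genes 15.5% were higher and 22% lower.

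Lysosomal genes were higher across most of the list. The cysteine protease Ctss was 15.24, 15 and 14.69 in Kit-low cells and 2.28 to 8.75 (median 2.32) in Kit-high cells, a difference of 11.85. Lgmn, the asparaginyl endopeptidase that processes cathepsins, was 13.61, 14.45 and 14.37 in Kit-low cells and 2.28 to 8.18 (median 2.34) in Kit-high cells. For these proteases the groups did not overlap, and the Kit-high cell with the highest value for both was cell 1. Ctsb was 14.44, 14.90 and 14.98 in Kit-low cells and 2.57 to 11.59 (median 8.88) in Kit-high cells, with 9 of 13 above background, so here the difference of 7.05 lay on top of a transcript that many Kit-high cells also had. Npc2 (difference 0.75), Man2b1 (-0.06), Laptm5 (-0.19) and Creg1 (-0.25) differed little, and Gla (-2.63) was lower. Of 40 members on the array (44 listed), 36 were measured, none only through the Kit-low cells, and 28 were higher and 1 lower by 2 or more, with a median of 3.79 beside -0.32 over all measured genes. The mean over the 36 genes was 11, 12.45 and 11.26 in cells 3, 6 and 10 and 6.30 to 10.05 in Kit-high cells (median 6.88).

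Lipid and iron genes gave a similar picture. Lpl, the lipoprotein lipase, was 10.57, 14.17 and 13.23 in Kit-low cells and 2.28 to 2.40 (median 2.31) in Kit-high cells. Abca1, the cholesterol exporter, was 12.62, 14.12 and 13.23 in Kit-low cells and 2.28 to 11.01 (median 2.31) in Kit-high cells. Hmox1, which breaks down heme, was 11.82, 11.79 and 9.02 in Kit-low cells and 2.33 to 9.47 (median 2.43) in Kit-high cells. On the probe sets used, the groups did not overlap for Lpl and Abca1, and for Hmox1 cell 10 lay within the Kit-high range. On other probe sets, Lpl was at 2.36 in cell 3, and Abca1 was above background in cell 3 only (10.79) or in no cell. Slc40a1, the iron exporter, was 2.36, 10.97 and 6.95 and thus at background in cell 3, and Cd5l, a marker of iron-recycling macrophages, was at background in all 16 cells. Of 18 members on the array (21 listed), 14 were measured, 3 of them only through the Kit-low cells. Of the 14, 13 were higher by 2 or more, beside 15.5% of all measured genes.

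Chemokines and cytokines varied among the 3 cells. Ccl6 was 11.29, 11.98 and 11.94 in Kit-low cells and 2.28 to 8.78 (median 2.34) in Kit-high cells, and Igf1, a growth factor made by tissue macrophages, was 11.47, 11.61 and 9.10 in Kit-low cells and 2.28 to 2.40 (median 2.31) in Kit-high cells. These were present in all 3 cells, whereas others were not. Ccl3 was 13.99, 7.92 and 2.31 in cells 3, 6 and 10 and 2.28 to 10.86 (median 2.31) in Kit-high cells, with 3 of 13 above background. Il1b was 13.32, 10.80 and 2.32 in the same Kit-low cells and 2.28 to 10.65 (median 2.32) in Kit-high cells, and Pf4 was 2.37, 11.58 and 13.14 in Kit-low cells and at most 2.40 in Kit-high cells. Cell 3 was thus highest for Ccl3 and Il1b, and cell 10 for Pf4. Of 27 members on the array (28 listed), 15 were higher by 2 or more and none lower, beside 8.30% higher over all genes without the filter. Of the 27, 13 were measured, 2 only through the Kit-low cells. The mean over the 13 was 8.76, 7.49 and 6.49 in cells 3, 6 and 10 and 2.28 to 7.65 in Kit-high cells, so that the groups overlapped, with Kit-high cell 5 above Kit-low cells 6 and 10.

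Genes of neighbouring myeloid types were divided. Of 15 MHC class II and dendritic cell genes on the array, Cd86 was the only one measured, at 9.89, 10.38 and 8.49 in Kit-low cells and 2.28 to 12.70 (median 2.32) in Kit-high cells. The groups overlapped for it, as 5 of 13 Kit-high cells were above background and cells 5 and 13 (12.70 and 10.61) exceeded every Kit-low cell. H2-Aa, H2-Eb1 and Ciita were above background in none of the 16 cells. Ccr2, the receptor of inflammatory monocytes, was 2.37, 2.31 and 2.31 in Kit-low cells and above background in 3 of 13 Kit-high cells. The lysozyme probe sets used were high, with Lyz1 at 14.65, 14.96 and 15.70 and Lyz2 at 12.35, 13.58 and 13.34 in Kit-low cells. Both were above background in the same 4 of 13 Kit-high cells. A further Lyz1 probe set gave 12.73, 13.85 and 14.34 in Kit-low cells, whereas another was at background in all 16 cells. Whether the Lyz1 signal is that of Lyz1 itself was not tested. Plac8, on the monocyte and the progenitor lists, was 2.36, 2.31 and 2.31 in Kit-low cells and 10.00 to 14.61 (median 13.36) in Kit-high cells. Of 10 genes of the microglia-type list on the array, 8 were higher by 2 or more, beside 8.30% of all genes without the filter, and the median was 3.98. Only 2 of the 10 were measured. Of these, Gpr34 was 11.25, 11.77 and 12.49 in Kit-low cells and 2.28 to 9.07 (median 2.31) in Kit-high cells, where cell 5 alone was above background. Fcrls, which passed the filter only through the Kit-low cells, was 12.24, 13.68 and 11.55 in them and 2.30 to 2.52 (median 2.35) in Kit-high cells. P2ry12 was 9.79, 9.99 and 2.31 in cells 3, 6 and 10 and at most 2.40 in Kit-high cells, so above background in cells 3 and 6, and Sall1 was at background in all 16 cells.

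**Figure D2:**
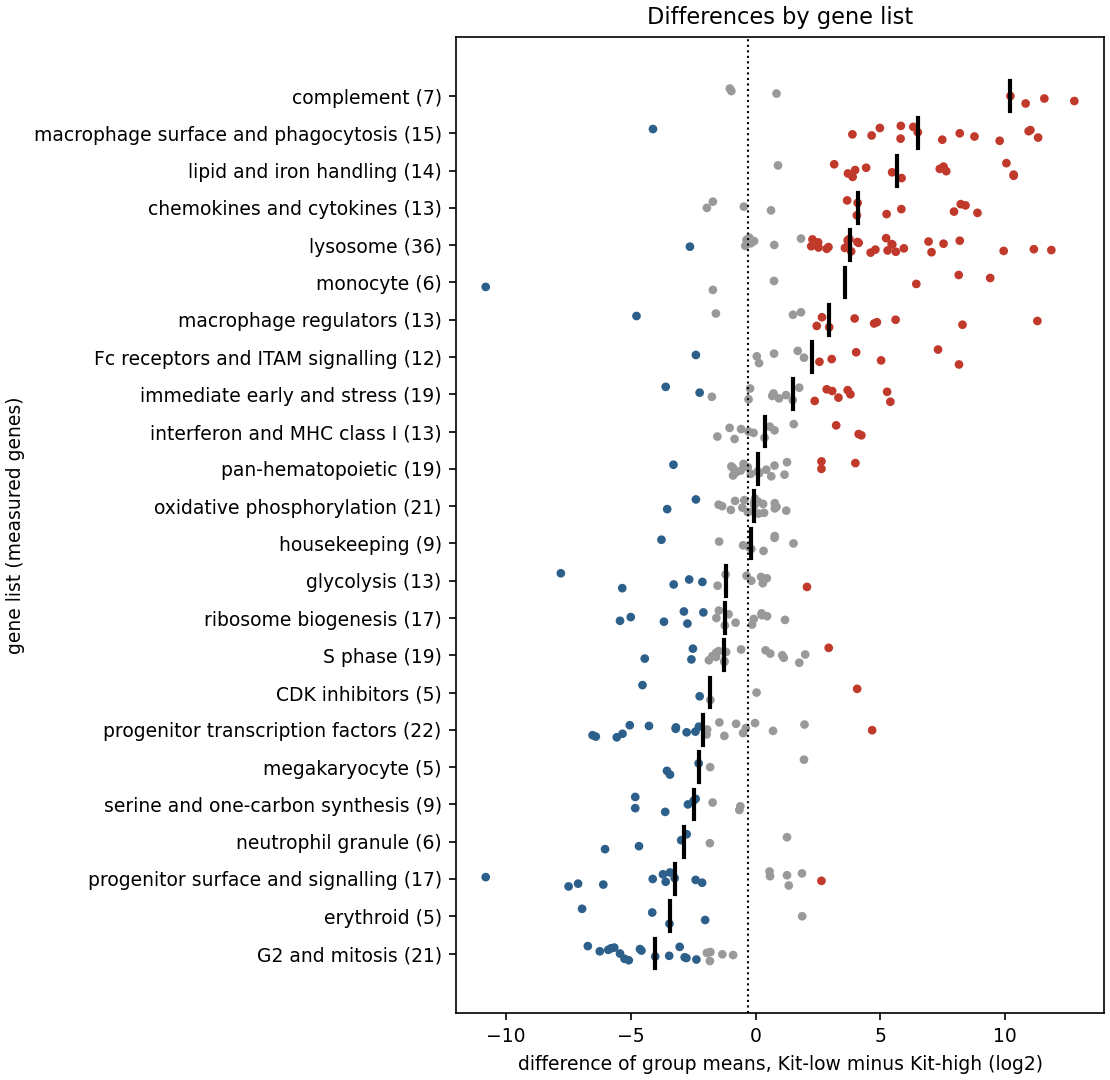
Difference between the group means (Kit-low minus Kit-high, log2) for the measured genes of each list with at least 5 of them. Each point is a gene, coloured when it reached 2 in either direction, the bars mark list medians and the dotted line the median of all measured genes (-0.32); macrophage, lysosome and lipid lists lie to the right, and progenitor and mitosis lists to the left. Some genes of the macrophage and lipid lists passed the filter only through the Kit-low cells, and some of the lists to the left only through the Kit-high cells.

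At the other end, the largest negative differences belonged to Plac8 (-10.81), Fut8 (-10.58), Mtm1 (-9.93), Tdp2 (-8.78) and Nedd4 (-8.75). Fut8, the core fucosyltransferase, was 2.36, 2.31 and 3.07 in Kit-low cells and 9.73 to 14.92 (median 13.53) in Kit-high cells. Tdp2, which repairs topoisomerase-linked DNA ends, was 2.36, 3.15 and 2.31 in Kit-low cells and 8.81 to 13.80 (median 11.54) in Kit-high cells. Plac8, Fut8, Tdp2, Stk17b and Kit were above background in all 13 Kit-high cells and in no Kit-low cell. Cpa3, the mast cell carboxypeptidase that progenitors also express, was 2.43, 2.31 and 2.31 in Kit-low cells and 2.30 to 14.98 (median 13.13) in Kit-high cells, above background in 11 of 13. Of the other 12 genes that were higher in every Kit-high cell, several differed little, among them Rpl4 (-0.49), Rplp0 (-0.50), Rps7 (-0.94) and Eef1b2 (-0.96), which encode ribosomal proteins and an elongation factor.

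Progenitor transcription factors were lower as a list but not absent. Meis1 was 2.79, 2.31 and 10.54 in Kit-low cells and 6.59 to 14.07 (median 12.52) in Kit-high cells. Gata2 was 11.27, 3.83 and 4.03 in Kit-low cells and 9.02 to 14.78 (median 13.40) in Kit-high cells, and Myb was 2.41, 2.31 and 8.31 in Kit-low cells and 2.36 to 13.90 (median 12.09) in Kit-high cells. Cell 3 had Gata2, cell 10 had Myb and Meis1, and cell 6 had none of these. Sox4 was 2.42, 13.78 and 2.31, so above background in cell 6 only, and Erg, Bcl11a and Gfi1b were at background in all 3. Ikzf1, which is expressed across leukocytes, was 11.46, 10.56 and 11.13 in Kit-low cells and 4.05 to 14.37 (median 12.18) in Kit-high cells. Lmo2, a bridging factor of stem cell complexes, ran the other way, at 12.02, 12.31 and 10.50 in Kit-low cells and 2.72 to 13.95 (median 2.93) in Kit-high cells. All 30 listed were on the array and 22 were measured, of which 11 were lower and 1 higher by 2 or more, with a median of -2.12. Over all measured genes 22% were lower and 15.5% higher, and the median over all 30 listed was -1.35. The number of the 22 measured factors above background was 5, 7 and 11 in cells 3, 6 and 10 and 8 to 20 in Kit-high cells.

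Progenitor surface genes showed the same division. Cd34 was 2.91, 2.31 and 2.74 in Kit-low cells and 2.31 to 14.32 (median 10.96) in Kit-high cells. Angpt1, the Tie2 ligand, was 2.40, 2.45 and 2.31 in Kit-low cells and 2.5 to 12.87 (median 10.58) in Kit-high cells. Spn (CD43) was 10.82, 4.73 and 4.06 and Itga4 2.56, 10.18 and 9.59 in Kit-low cells, so each was above background in some of the 3. Of 27 members on the array (29 listed), 17 were measured, 11 lower and 1 (Cd53) higher by 2 or more, with a median of -3.24. Over all measured genes 22% were lower and 15.5% higher. Genes such as Cd34 and Angpt1 passed the filter only through the Kit-high cells, and over all 27 on the array the median was -0.97.

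Several genes of other lineages that some Kit-high cells carried were at background in the Kit-low cells. Mpo, a granule enzyme, was 2.55, 2.64 and 2.48 in Kit-low cells and 2.46 to 15.22 (median 9.03) in Kit-high cells, and Prtn3 was 2.37, 2.63 and 2.63 in Kit-low cells and 2.31 to 14.77 (median 8.77) in Kit-high cells. Gata1, the erythroid and megakaryocytic factor, was 2.36, 2.31 and 2.31 in Kit-low cells and 2.28 to 12.66 (median 2.82) in Kit-high cells, where 6 of 13 were above background. Among measured genes, 4 of 6 neutrophil granule, 3 of 3 mast cell and basophil, 4 of 5 erythroid and 3 of 5 megakaryocyte genes were lower by 2 or more and none was higher, beside 22% lower over all measured genes. Genes above background in no Kit-low cell, such as all 3 of the mast cell list, passed the filter only through the Kit-high cells. A lower value was thus largely fixed for them. Over all genes of these lists on the array the medians were -0.02, -0.31, -0.12 and -0.46 in the same order, beside 0.01 over all 18194 genes. Outside the filter 2 megakaryocyte genes were higher, Pf4 by 6.70 and Thbs1 (above background in cell 3 only) by 2.63. Globin genes, Alb and the endothelial genes Cdh5 and Kdr were at background in all 16 cells, whereas Afp was above background in 1 Kit-high cell. Other endothelial genes were present in some cells. Of 25 pan-endothelial genes on the array 4 were measured, 2 of them lower by 2 or more and none higher. Of these 4, the Kit-low cells 3, 6 and 10 had 2, 0 and 1 above background, and Kit-high cells 0 to 4 (median 2). The pan-hematopoietic list differed little, with 3 of 19 genes higher, 1 lower and a median of 0.09, beside 15.5% higher and 22% lower over all measured genes.

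The 3 Kit-low cells differed from one another in cell-cycle genes. Over 19 measured S phase genes the mean was 4.0, 13.09 and 8.24 in cells 3, 6 and 10 and 3.36 to 12.46 in Kit-high cells (median 9.62). The replication helicase subunit Mcm7 was 2.36, 14.15 and 3.95 and the ribonucleotide reductase subunit Rrm2 2.43, 13.91 and 2.43 in the same 3 cells. Cell 6 had 19 of 19 S phase genes above background, cell 10 had 14 and cell 3 had 4. Cell 3 also had the fewest probe sets above background of the 3, at 5669 against 8747 and 7732 in cells 6 and 10. The list median of -1.25 is an average over unlike cells: without cell 3 it was 1.75, without cell 6 it was -3.40 and without cell 10 it was -0.92.

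Genes of G2 and mitosis were lower in the Kit-low mean. Over 21 measured genes the mean was 2.85, 7.0 and 7.77 in cells 3, 6 and 10 and 3.08 to 13.22 in Kit-high cells (median 11.74), and the number above background was 1, 12 and 16, against 1 to 21 in Kit-high cells (median 21). Kif11, a spindle motor, was 2.61, 2.48 and 2.57 in Kit-low cells and 2.37 to 12.11 (median 9.69) in Kit-high cells, and Ube2c, which acts at mitotic exit, was 2.40, 2.58 and 9.40 in Kit-low cells and 2.39 to 14.48 (median 13.83) in Kit-high cells. Kit-high cells 1, 7 and 11 were as low as cell 3, with 1, 2 and 1 of the 21 above background. Cell 3 and these Kit-high cells also had the fewest probe sets above background of the 16 cells. The numbers were 5669 in cell 3 and 4137, 5890 and 6045 in cells 1, 7 and 11. The part of overall detection in the cell-cycle values was not tested. Of the 21 genes, 16 were lower by 2 or more and none higher, with a median of -4.02, beside 22% lower over all measured genes.

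**Figure D3:**
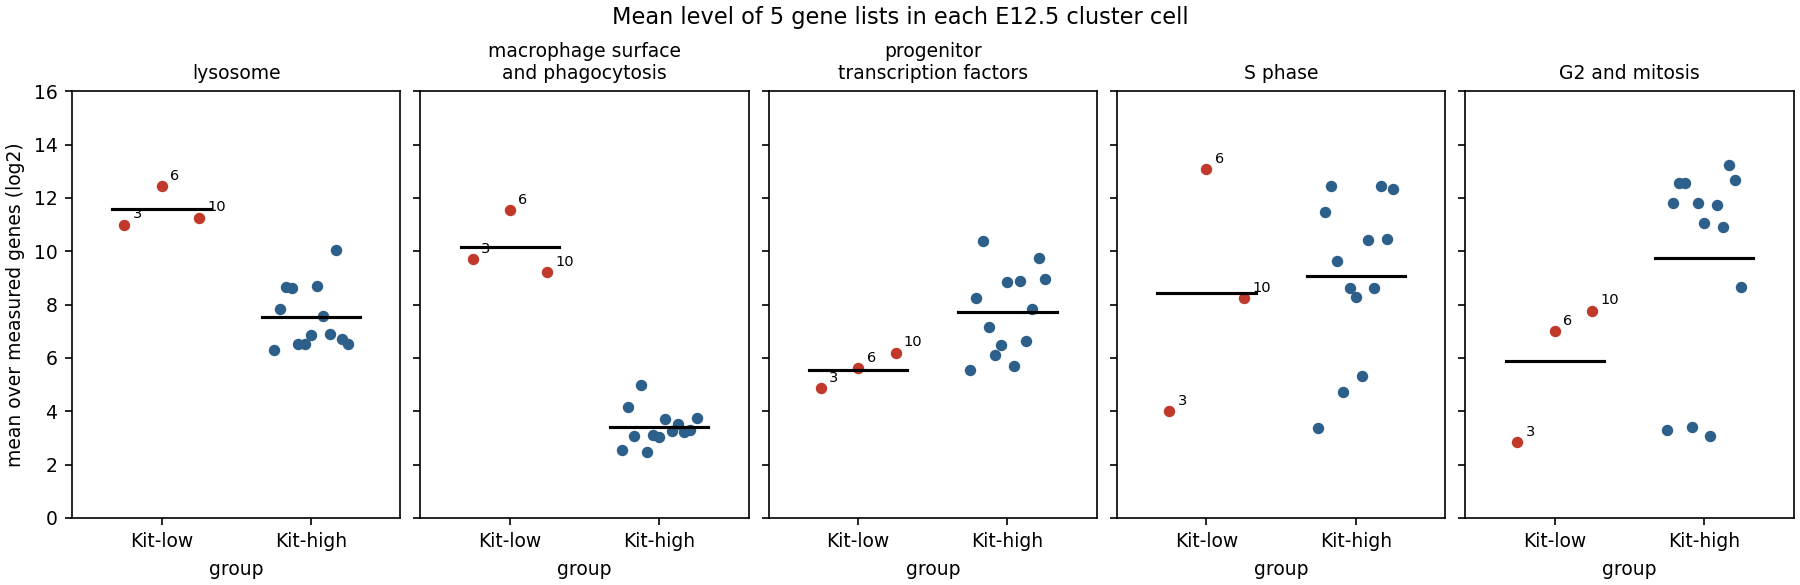
Mean log2 expression over the measured genes of 5 lists in each cell, with Kit-low cells on the left of each panel (numbered) and Kit-high cells on the right; horizontal bars are group means. The groups are apart for the lysosome and the surface lists (6 of the 15 surface genes passed the filter only through the Kit-low cells and so had to differ) and overlap for the other 3. The S phase values of the Kit-low cells run over most of the range of the Kit-high cells and beyond it, with cell 6 (13.09) above the highest Kit-high cell (12.46).

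Metabolic lists had smaller medians than the macrophage lists. Serine and one-carbon genes had a median of -2.48 (6 of 9 measured genes lower, none higher), ribosome biogenesis -1.23 (6 of 17 lower, none higher), glycolysis -1.20 (5 of 13 lower, 1 higher) and oxidative phosphorylation -0.06 (2 of 21 lower, none higher). Over all measured genes 22% were lower and 15.5% higher, with a median of -0.32. Asns, the asparagine synthetase, was 2.40, 2.31 and 2.31 in Kit-low cells and 2.31 to 13.43 (median 2.95) in Kit-high cells. Hk1 was 3.06, 3.53 and 3.06 in Kit-low cells and 2.39 to 13.22 (median 9.06) in Kit-high cells, while Hk2 was 3.02, 11.51 and 9.35 in Kit-low cells and 2.53 to 12.93 (median 3.19) in Kit-high cells. The housekeeping list had a median of -0.17, with Actb at 15.09, 15.25 and 15.83 in Kit-low cells and 14.15 to 15.76 (median 15.12) in Kit-high cells.

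The macrophage markers were then followed in the other populations, which the split did not use. The number of the 9 markers above background was 0 to 3 in 28 E10.5 cluster cells, 0 to 3 in 26 fetal liver stem cells (2 near-identical arrays averaged), 0 to 2 in 7 HEC and 0 or 1 in 7 EC. No cell outside the 3 had more than 3. Low Kit was also found without most of these markers. The 1 E10.5 cluster cell under the threshold (cell 7, Kit 4.02) had 5 of 5 progenitor markers and 2 of the 9 macrophage markers (Adgre1 and Cd68), with no C1q gene. In addition, 4 of 7 HEC and 4 of 7 EC were under the threshold. Fetal liver cell 5 (Kit 2.49) had Mrc1 and Mertk, and fetal liver cell 7 (Kit 9.34) had C1qc, Mrc1 and Mertk.

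**Figure D4:**
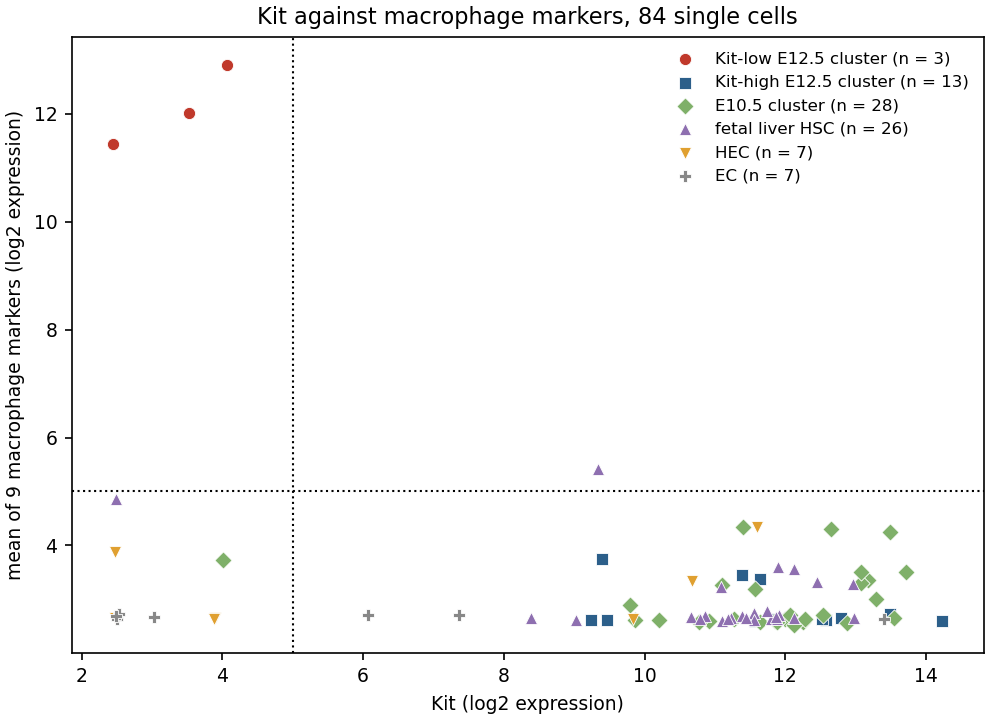
Kit (x axis, log2) against the mean of 9 macrophage markers (y axis, log2) in 84 cells, 1 point per cell, with dotted lines at log2 5. The 3 Kit-low E12.5 cells lie at 11.44 to 12.91 on the y axis, and the highest other cell, from fetal liver, at 5.42.

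The 98 genes were chosen for being high in the 3 cells, and their level in other populations is given as a description. Kit-high E12.5 cells had 12 to 24 of the 98 above background (median 18), E10.5 cluster cells 17 to 42 (median 26), fetal liver stem cells 12 to 40 (median 21), HEC 25 to 39 (median 30) and EC 15 to 33 (median 23). The highest E10.5 count, 42, belonged to cell 7, and fetal liver cells 7 and 5 had 40 and 39.

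**Figure D5:**
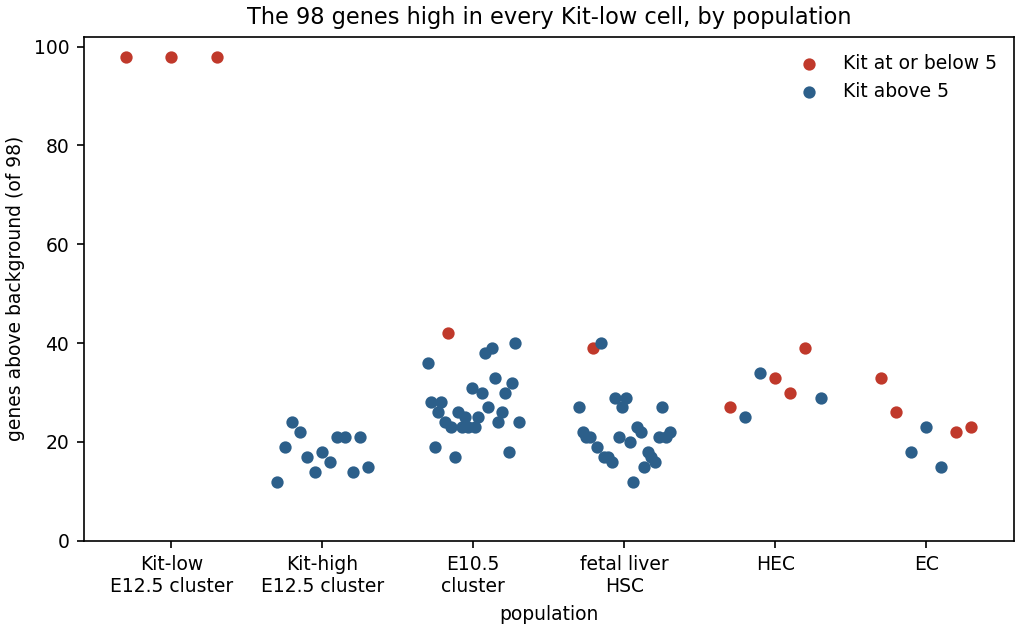
Number of the 98 genes above background (y axis) in each of 84 cells by population, coloured by Kit at or below 5 and Kit above 5. The 3 Kit-low E12.5 cells are at 98 by the way the genes were chosen, and all other cells lie between 12 and 42.

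Because the 3 cells are part of the E12.5 population, they also weigh on its mean. Of the 7935 genes, 147 (1.85%) were higher by 2 or more in the 16 E12.5 cells than in the E10.5 cluster cells, and 148 (1.87%) when only the 13 Kit-high cells were used. Of the 147, 95 stayed at 2 or more and 52 did not. By the way the means are made, each of the 52 had to be higher in Kit-low than in Kit-high cells. C1qb was higher at E12.5 by 3.04 with all 16 cells and by 0.65 with the 13, and Ctss by 2.78 and 0.56. Plac8 went the other way, with 1.39 over 16 cells and 3.42 over 13. Both comparisons use the same E10.5 cells.

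The number of cells limits the precision, since a transcript lost in 1 of 3 cells shifts a mean by several log2 units. For 31 named genes with more than 1 probe set, 10 were called the same way by every probe set, and 1, Bptf, had probe sets called in opposite directions (-7.18 on the one used). For 12 of the 31 another probe set was at background in all 16 cells. A labelling control spot (Phe 3′) was off its shared value in 5 of the 16 cells, cell 3 among them, and its part in the result was not tested. With only the 2 Kit-low and 9 Kit-high cells at the shared values, 2071 genes were higher and 1327 lower, and 230 and 27 did not overlap. The filter was applied again to these 11 cells, so genes seen in no Kit-high cell could not pass. The counts are therefore not out of 7935, and their shares are not given here. Non-overlap is also easier to reach with 2 against 9 cells than with 3 against 13.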

How the data were processed

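Single cells were hybridised to Affymetrix arrays, 1 array per cell. The values are the log2 expression values that the authors deposited. Per the submitters' processing notes they used GCRMA and affy; which versions is not given in the sources used here. The deposited values put undetected probe sets at a floor near log2 2.3, so a difference against the floor is no true ratio. Fetal liver arrays 20 and 21 correlated at 0.991 (next pair 0.859) and were averaged, leaving 84 cells. Of 45101 probe sets, 34958 had 1 gene symbol. Where a gene had several, its brightest probe set was used, by the mean of the 5 population means. Genes above log2 5 in at least 3 of the 16 E12.5 cells were measured, and a difference of 2 was called. Named genes were the 25 largest positive differences in genes that every Kit-low cell had above background, the 25 largest negative in genes that 75% or more of Kit-high cells had, and members of the 35 lists. The members and lists were chosen with earlier results of these data known. The comparison code was tested on simulated data. Promoters came from RefSeq tables. Python 3.11.15, pandas 2.3.3, numpy 2.4.6, scipy 1.17.1 and matplotlib 3.10.9 were used.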

Additional observations from a re-analysis of the deposited data

How the results depend on the processing

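No paired analysis was possible because the replicate numbers only number single cells, and the result comes from no test, within 1 population. A Kit threshold of 8 gave the same 3 cells, as it had to, since no cell lay between 4.06 and 9.24. Requiring every Kit probe set to be low also gave them. The second Kit probe set was above background in Kit-high cell 4 only (10.17), so it had little room to change the split. A threshold of 4 moved cell 6 to the other group and gave 2622 genes lower and 20 genes higher in every Kit-low cell. The mean over probe sets gave 754 genes higher, 973 lower and a progenitor factor median of -1.19. A size of 1 gave 2165 higher and 3095 lower. Quantile normalization gave 153 and 32 genes without overlap, and moved the median of all measured genes from -0.32 to -0.12; an equal-median shift moved it to -0.64. Without a filter the surface list median was 4.89 and the progenitor factor median -1.35, as it also was with a filter over the whole series, and the mesenchymal list went to 0.01. The median over cells gave 9.17 for the surface list. With control spots at their shared values (2 Kit-low and 9 Kit-high cells, filter applied again), 2071 genes were higher and 230 and 27 did not overlap. The lysosome median was then 4.73 and the S phase median 2.55. Leaving out 1 cell gave 958 to 1869 genes higher (1869 without cell 3), 1512 to 2580 lower, 72 to 191 higher in every Kit-low cell (191 without cell 10) and 17 to 39 with every Kit-high cell above every Kit-low cell (39 without Kit-high cell 1, 35 without cell 10 and 33 without cell 6). The list medians were then 4.54 to 7.62 for the surface list, 3.49 to 4.16 for the lysosome, -2.40 to -1.74 for progenitor factors and -3.40 to 1.75 for S phase, with the causes not tested. In each of these runs the filter was applied again to the cells kept, so the gene set also changed. Without any 1 Kit-low cell, the 40 measured genes seen in no Kit-high cell could not pass. They include 6 of the 15 measured surface genes.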

Other observations

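Immediate early and stress genes were uneven in the Kit-low cells. Atf3 was 14.30, 2.31 and 13.81 in cells 3, 6 and 10 and at background in all 13 Kit-high cells, and Egr1 was 12.90, 2.32 and 14.21 in Kit-low cells and 2.28 to 14.38 (median 2.40) in Kit-high cells. Fos was 13.91, 12.20 and 14.41 in Kit-low cells and 2.32 to 14.36 (median 11.07) in Kit-high cells. Cell 6, with S phase genes high, thus lacked Atf3 and Egr1 but had Fos. Of 19 measured members 8 were higher and 2 lower by 2 or more, with a median of 1.49. Over all measured genes, the base for this list and the next, 15.5% were higher and 22% lower, with a median of -0.32. Interferon and MHC class I genes differed little, with 3 of 13 higher, none lower and a median of 0.36, and B2m was 14.90, 14.98 and 14.66 in Kit-low cells and 11.60 to 14.79 (median 14.23) in Kit-high cells.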
